A study of Mus musculus with 6 samples.

Results

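Amino acid transporters of the renal cortex were examined as a set of 33 genes, chosen by symbol from the 24346 genes listed in each library, and all 33 were found. The set holds the luminal carriers of the proximal tubule, their accessory chains, the carriers that release amino acids to the blood, and general nutrient carriers of the same families. The renal cortex came from C57BL/6 mice kept for 8 weeks on the HF/HC/HS/BA diet, which is high in fat and cholesterol, contains bile salt and is used to produce steatohepatitis. The diet contained tofogliflozin in 3 samples, and 3 samples from the same diet without it were the controls. Tofogliflozin inhibits SGLT2, the glucose carrier of the early proximal tubule. All 6 libraries therefore share the diet, and no sample from a standard diet was analysed here. The labels state neither dose, sex nor age, nor whether each library is 1 animal. The p-values therefore weigh group differences against the spread between these samples, which may not be the spread between animals. Values are FPKM, fragments scaled to transcript length and library size, so that levels can be compared between genes.

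The kidney filters free amino acids and takes nearly all of them back in the proximal tubule. Sodium-coupled carriers and exchangers of the luminal brush border bring them into the cell, and exchangers and uniporters of the basolateral membrane let them out. Several carriers work only with a partner: a light chain of the Slc7 family pairs with a heavy chain of the Slc3 family, and Slc6a18 and Slc6a19 need the small membrane protein collectrin, the product of Tmem27. Loss of single members causes inherited aminoacidurias, such as cystinuria for Slc3a1 and Slc7a9, Hartnup disorder for SLC6A19 and lysinuric protein intolerance for SLC7A7.

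Counts were not among the values. From the steps between low FPKM values, the depth of the libraries was such that 1 FPKM stands for roughly 7.57 to 9.80 fragments per kilobase of transcript, most in tofogliflozin replicate 1. Log2 values correlated at 0.990 to 0.994 between libraries, across all genes, in every pair of libraries. Markers of proximal tubule were abundant and none of the fixed marker genes of any cortical cell type was listed at 0 in all libraries.

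At the threshold used, an adjusted p under 0.05 over all 12248 genes tested, none of the transporters passed (limma, 0 of 28 tested), where 0.253% of all tested genes passed, 0.196% with higher and 0.0572% with lower values. The nearest was Slc1a5, a carrier of glutamine and other neutral amino acids, with an adjusted p of 0.0532 and a mean 1.54 times the control level. At an unadjusted p under 0.05 there were 9 of the 28, or 32.1%, against 13.1% of all genes tested. Of these 9, Slc1a5, Slc7a9, Slc7a12 and Slc6a19 had higher means with tofogliflozin (6.7% of all genes), and Slc36a1, Slc1a1, Slc6a13, Slc7a13 and Slc1a4 lower ones (6.39%). In the 15 other settings tried, Slc1a5, Slc7a9, Slc36a1, Slc1a1 and Slc6a13 kept such a p in all 15, Slc7a12 in 13, Slc7a13 and Slc6a19 in 11 each and Slc1a4 in 4. In 9 of the 28 every library of one group lay above every library of the other, 4 higher and 5 lower with the drug, where 18.5% of all genes tested did so (9.63% higher and 8.86% lower). In bulk tissue, fewer cells of a type and less RNA per cell cannot be told apart. Library values below are in the order of replicates 1, 2 and 3, for the diet and then for tofogliflozin.

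Differences lay to both sides of 0. Of the 28, 15 had a log2 change above 0, and their median was 0.04, beside -0.001 for all tested genes, 49.7% of which lay above 0. The median size of the change, sign ignored, was 0.12 for the transporters and 0.10 for all genes. The 95% interval of 18 of the 28 lay entirely within 0.5 of 0 on the log2 scale. The summed FPKM of the 33 genes was 3222, 3004 and 3511 in the diet libraries and 3238, 3210 and 3165 with tofogliflozin, so the groups overlapped. Within the Slc1, Slc6 and Slc7 families, members with opposite differences stood side by side.

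**Figure D1:**
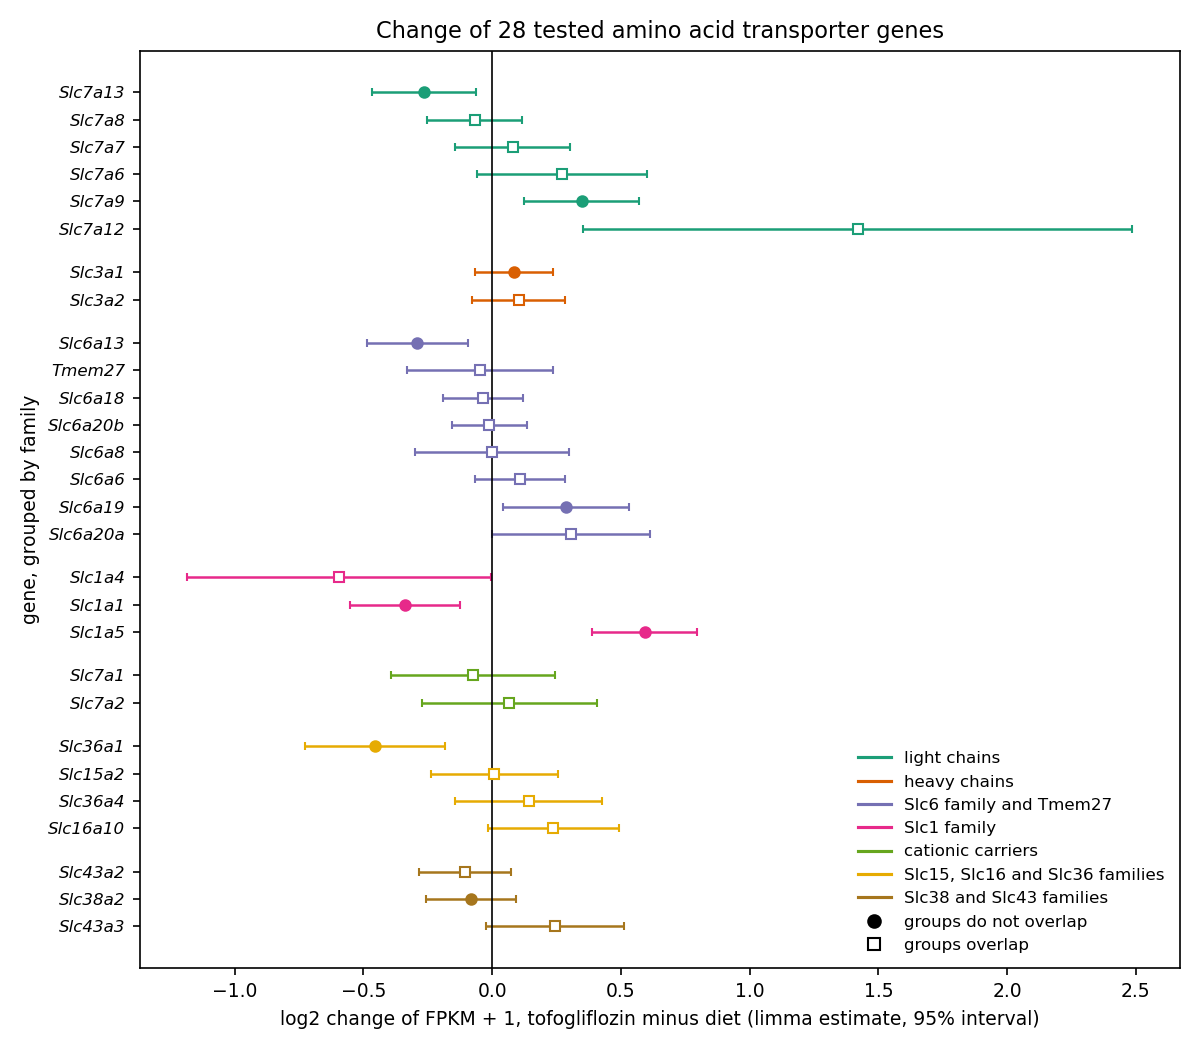
Log2 change of FPKM + 1 (tofogliflozin minus diet, horizontal axis) for the 28 tested transporter genes, grouped by family on the vertical axis, with limma's 95% interval. Filled circles mark the 9 genes whose groups do not overlap, and Slc1a5 has the highest lower bound, at 0.39.

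By level, Tmem27 came first in the set and lay at place 68 among all tested genes, followed by Slc7a13, Slc3a1, Slc6a19 and Slc6a18. Mean levels of at least 100 FPKM were found for 9 of the 33 genes and of at least 50 FPKM for 14. Another 9 stayed under a mean of 2 FPKM, among them the cationic carriers Slc7a1 and Slc7a2. Slc7a5, Slc36a2, Slc38a1, Slc38a4 and Slc43a1 (5 genes) did not reach 1 FPKM in 3 libraries and were not tested.

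**Figure D2:**
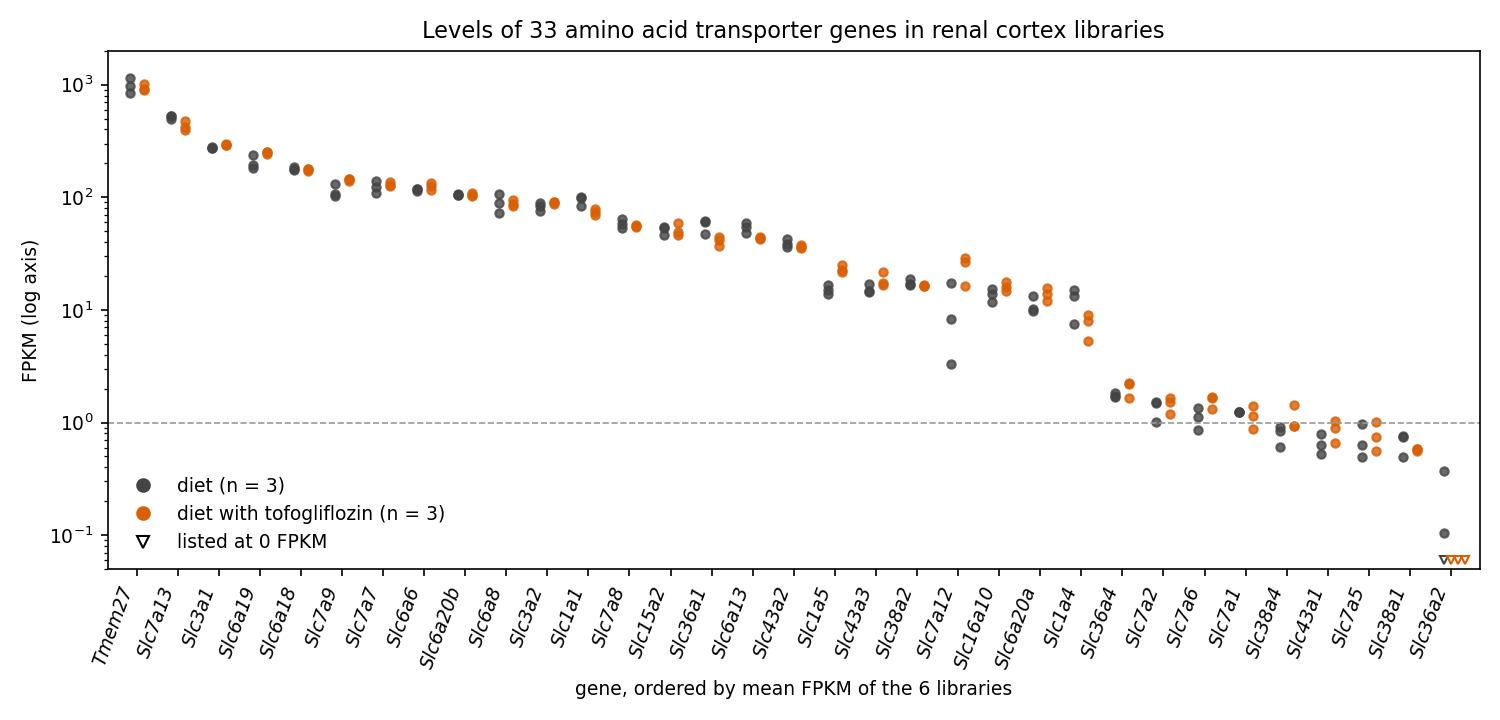
FPKM (log axis) of the 33 transporter genes in the 3 diet libraries (grey) and the 3 tofogliflozin libraries (orange), ordered by mean level, with the 1 FPKM limit of the filter as a dashed line. The order runs from Tmem27, at 844 to 1135 FPKM, down to Slc36a2, listed at 0 in 4 libraries (open triangles).

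Among the luminal carriers, Slc6a19 encodes the main sodium-coupled carrier of neutral amino acids. It was at 193, 182 and 238 FPKM on the diet, against 240.5, 251 and 253 FPKM with tofogliflozin, a log2 change of 0.29 ± 0.11 (SE; limma adjusted p = 0.298). The tofogliflozin libraries all lay above the diet libraries, but diet replicate 3 came close to the lowest of them. Its neighbour in the genome, Slc6a18, which carries glycine and alanine, was at 173, 186 and 180.1 FPKM and at 170.2, 177 and 179 FPKM. The groups of Slc6a18 overlapped, with a 95% interval of the log2 change from -0.19 to 0.12. The ratio of Slc6a19 to Slc6a18 was 1.11, 0.977 and 1.32 on the diet and 1.41, 1.42 and 1.41 with tofogliflozin. This and the other ratios were chosen after the values were seen and are given without a test.

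Tmem27, the collectrin gene, was at 969, 844 and 1135 FPKM on the diet, against 1018, 920.0 and 896 FPKM with tofogliflozin. The groups overlapped and the 95% interval of the log2 change ran from -0.33 to 0.24. Slc6a20b, of the imino acid carriers that take up proline, was at 107, 105 and 106 FPKM against 104, 103 and 109 FPKM (log2 change -0.01; 95% interval -0.16 to 0.13). Its close relative Slc6a20a was less abundant, at 10.3, 13.2 and 9.73 FPKM and at 11.9, 13.9 and 15.7 FPKM (limma adjusted p = 0.384). Of the distinct 50-base stretches of Slc6a20a transcripts 15.3% also occur in another gene, namely Slc6a20b, so reads can be shared and the values of this pair are uncertain.

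Slc6a6, the taurine carrier, and Slc6a8, the creatine carrier, are transporters of amino acid derivatives. Slc6a6 was at 117, 113 and 118 FPKM and at 127, 116 and 133 FPKM with tofogliflozin, with overlapping groups (log2 change 0.11; limma adjusted p = 0.595). Slc6a8 was at 88.2, 72.9 and 106 FPKM and at 83.5, 94.3 and 86.9 FPKM (log2 change -0.001; 95% interval -0.30 to 0.30), a value whose sign turned in other settings. The GABA and taurine carrier Slc6a13 was lower in every tofogliflozin library, at 42.9, 44.4 and 43.8 FPKM against 54.8, 47.9 and 58.7 FPKM. Its log2 change was -0.29 ± 0.09 (SE; limma adjusted p = 0.215), and the diet libraries were further apart from each other than the treated ones.

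The Slc1 family held the gene nearest to the threshold and a pair of relatives with lower means. Slc1a5 was at 13.9, 16.5 and 14.9 FPKM on the diet, against 22.8, 21.9 and 25.2 FPKM with tofogliflozin, or 15.1 ± 1.29 and 23.3 ± 1.69 FPKM (mean ± SD, n = 3). The groups were well apart, and the log2 change was 0.59 ± 0.09 (SE; 95% interval 0.39 to 0.80; limma adjusted p = 0.0532). Its adjusted p lay between 0.0275 and 0.210 in the 15 other settings tried and was under the threshold in 3 of them: with library weights, with a robust variance trend and without diet replicate 2 (0.0329). Slc1a4, a relative that exchanges alanine, serine and cysteine, was at 13.2, 7.50 and 15.2 FPKM and at 7.98, 9.06 and 5.28 FPKM with tofogliflozin. Diet replicate 2 of Slc1a4 lay among the treated libraries, and the adjusted p was 0.379 (log2 change -0.59 ± 0.26, SE). Its unadjusted p of 0.049 stayed under 0.05 in 4 of the 15 other settings, and its log2 change ran from -0.39 without tofogliflozin replicate 3 to -0.87 without diet replicate 2.

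Slc1a1 encodes the high-affinity glutamate and aspartate carrier of the luminal membrane, typical of the later proximal segments. It was at 101, 83.9 and 98.9 FPKM on the diet, against 69.8, 79.4 and 74.8 FPKM with tofogliflozin, with no overlap between the groups. The mean was 0.788 times the control level (log2 change -0.34 ± 0.09, SE; limma adjusted p = 0.199). The ratio of Slc1a1 to Slc1a5 was 7.28, 5.09 and 6.63 on the diet and 3.06, 3.63 and 2.97 with the drug. Exons of Slc1a1 overlap a gene on the opposite strand, 4430402I18Rik, over 31.9% of their length; the latter was listed at 2.40 to 3.26 FPKM, far below Slc1a1.

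**Figure D3:**
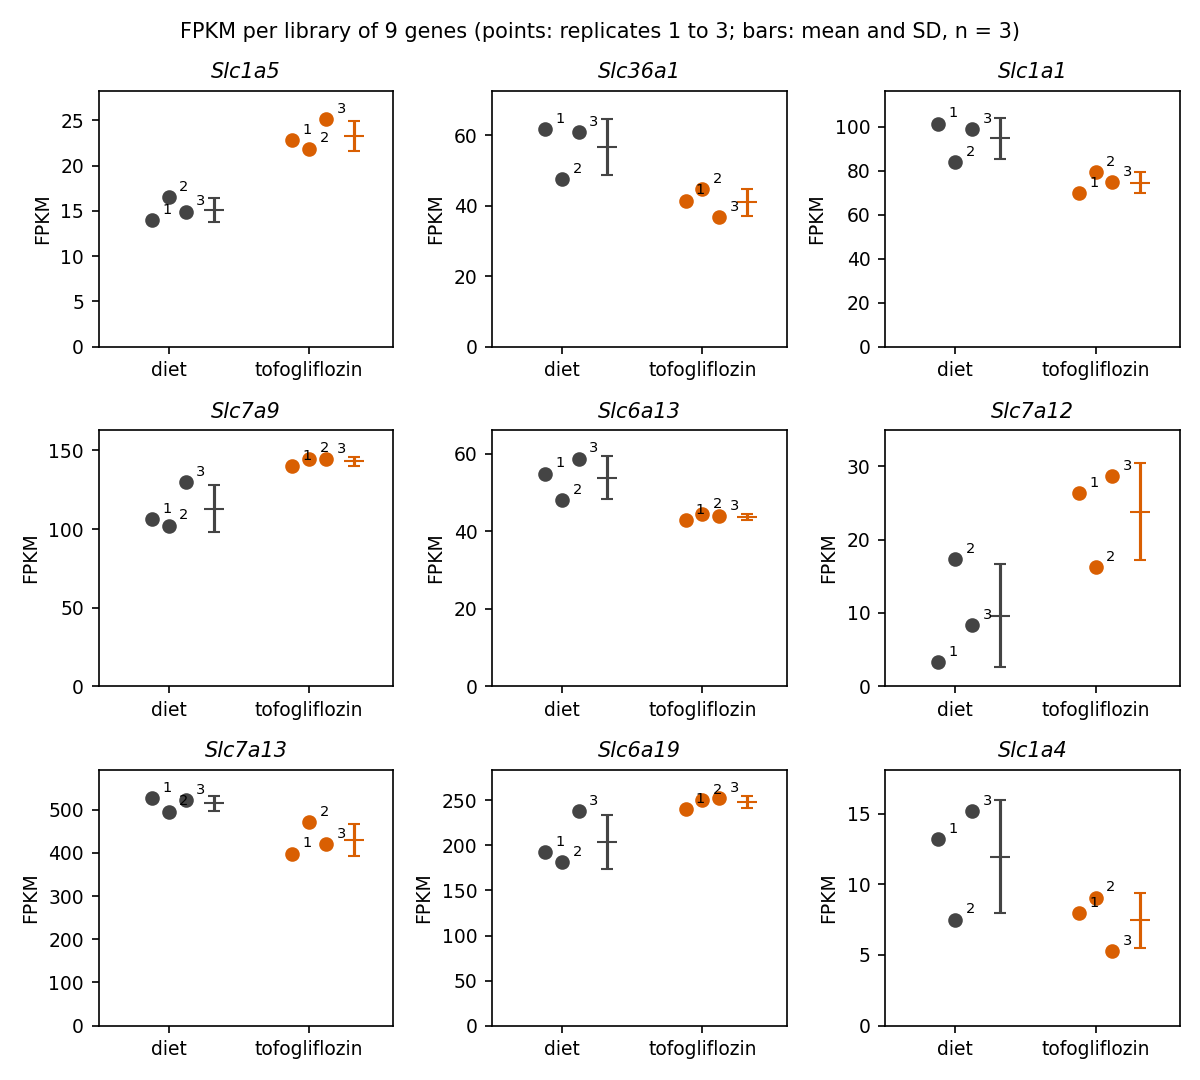
FPKM in each library (vertical axes, from 0) of the 9 transporter genes with an unadjusted limma p under 0.05, with replicate numbers beside the points and mean and SD at the right of each group. Slc1a5, Slc7a9 and Slc6a19 have all treated libraries above the diet libraries, Slc36a1, Slc1a1, Slc6a13 and Slc7a13 have them all below, and Slc7a12 and Slc1a4 overlap.

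Cystine and cationic amino acids are taken up by a dimer of the light chain encoded by Slc7a9 and the heavy chain rBAT encoded by Slc3a1. Slc7a9 was at 106, 102 and 129.9 FPKM on the diet, against 139.9, 145 and 145 FPKM with tofogliflozin, which put every treated library above every control (log2 change 0.35 ± 0.10, SE; limma adjusted p = 0.201). The heavy chain gene Slc3a1 was at 273, 274 and 279 FPKM against 293, 289.9 and 295 FPKM. These groups did not overlap either, but the means differed by a factor of 1.06 and the limma adjusted p was 0.625. On the opposite strand Prepl covers 26.5% of the exonic bases of Slc3a1, and its own levels were 87.0, 83.0 and 82.8 FPKM on the diet against 90.8, 89.2 and 89.8 FPKM with tofogliflozin, also without overlap. Its part in the value of Slc3a1 was not tested, since the labels do not say whether strand was used in counting.

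rBAT has a second light chain in the late proximal tubule, the aspartate, glutamate and cystine carrier encoded by Slc7a13. Slc7a13 was the most abundant light chain, at 527, 496 and 523 FPKM on the diet, against 399, 471 and 420.5 FPKM with tofogliflozin. All treated libraries lay below the controls, with replicate 2 the nearest, and the mean was 0.835 times the control level (log2 change -0.26 ± 0.09, SE; limma adjusted p = 0.256). The ratio of Slc7a9 to Slc7a13 was 0.202, 0.206 and 0.249 on the diet and 0.351, 0.308 and 0.344 with the drug. Relative to Slc3a1, Slc7a13 was at 1.93, 1.81 and 1.88 against 1.36, 1.62 and 1.43, and Slc7a9 had a ratio of 0.389, 0.373 and 0.466 on the diet against 0.478 to 0.4996 with tofogliflozin.

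**Figure D4:**
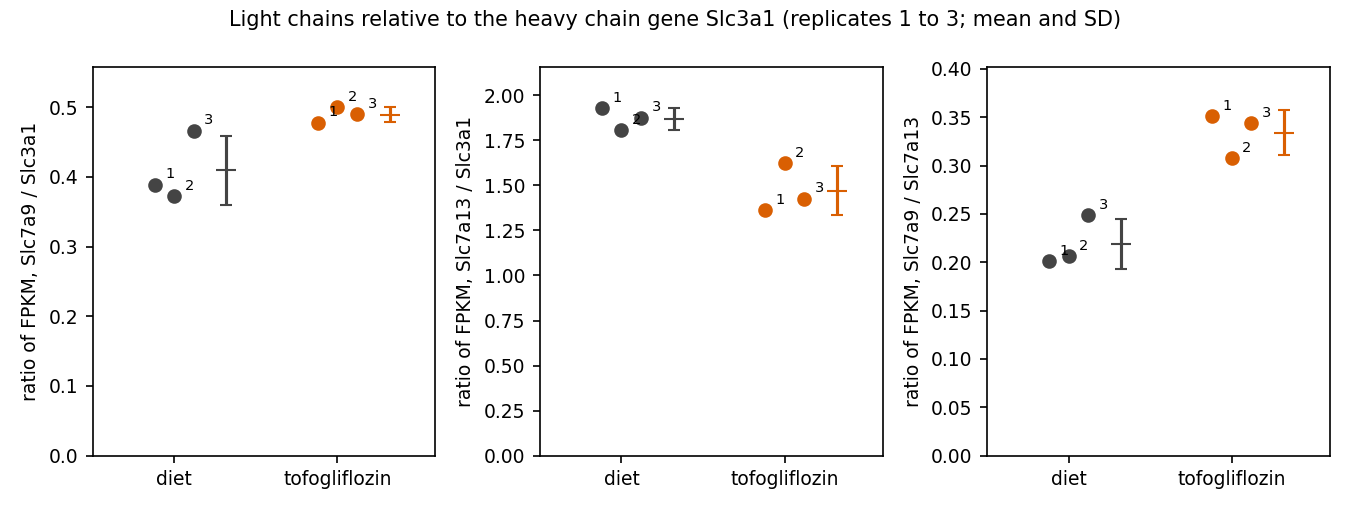
Ratios of FPKM (vertical axes, from 0) in each library for Slc7a9 to Slc3a1, Slc7a13 to Slc3a1 and Slc7a9 to Slc7a13, with replicate numbers, mean and SD (n = 3 per group). Both ratios with Slc7a9 on top are higher in every tofogliflozin library, Slc7a9 to Slc7a13 at 0.308 to 0.351 against 0.202 to 0.249, and Slc7a13 to Slc3a1 is lower in every one.

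Upstream sequences are shown for both genes of the cystine carrier and, as the member with the lowest unadjusted p among those of lower mean, for Slc36a1. They are the bases before the RefSeq start site, up to 250, on the plus strand of GRCm38 (RefSeq, build GRCm38.p6), and stop before the first annotated exon. For Slc7a9 the window lies in the first intron of a longer annotated transcript, and for Slc3a1 and Slc36a1 it lies outside the annotated gene. Windows were found for 22 of the 33 genes. Capitals mark a match, on either strand, to the HNF4 letters CAAAGTCCA; HNF4 factors are known regulators of proximal tubule genes. The motifs were chosen after the sequences had been seen and were searched in the full 250 bases before each start site, in these genes as in all others, also where the printed sequence is shorter.
Slc7a9, chr7:35448842-35449036: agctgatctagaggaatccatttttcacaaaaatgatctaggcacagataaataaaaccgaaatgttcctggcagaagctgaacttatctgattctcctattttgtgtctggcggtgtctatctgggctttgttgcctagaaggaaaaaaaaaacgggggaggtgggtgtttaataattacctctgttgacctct
Slc3a1, chr17:85028097-85028346: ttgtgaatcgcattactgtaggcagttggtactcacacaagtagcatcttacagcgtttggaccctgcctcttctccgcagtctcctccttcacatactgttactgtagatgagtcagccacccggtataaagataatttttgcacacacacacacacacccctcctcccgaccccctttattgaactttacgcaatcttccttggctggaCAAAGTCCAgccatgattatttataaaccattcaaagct
Slc36a1, chr11:55204090-55204339: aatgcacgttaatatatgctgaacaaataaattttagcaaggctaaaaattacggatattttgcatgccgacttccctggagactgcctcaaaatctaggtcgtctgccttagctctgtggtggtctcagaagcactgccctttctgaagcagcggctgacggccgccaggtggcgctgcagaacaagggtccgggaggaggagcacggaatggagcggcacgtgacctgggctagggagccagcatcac

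The HNF4 letters lie 39 to 31 bases before the start site of Slc3a1, which alone among the 22 genes held them (1 gene). Over all 32851 windows of 250 bases, 0.384% held these letters. The 22 genes had 35 of these windows, so counts of genes and shares of windows are in unlike units. The letters of the ATF4 response element (TGATGNAA), a site of the amino acid response, occurred in 1 gene, Slc7a7, and in 3.45% of all windows. Those of the PPAR response element, a direct repeat with any base between its repeats, occurred in 0 of the 22 and in 0.0335% of all windows. Of the genes with a match, Slc3a1 was higher in every treated library, by a factor of 1.06 in the means (limma adjusted p = 0.625), while Slc7a7 had overlapping groups. With 1 gene per motif, a link between match and difference was not tested. A match describes the letters only.

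Slc7a12 encodes a light chain for small neutral amino acids whose heavy chain is unknown. It was at 3.31, 17.3 and 8.33 FPKM on the diet, against 26.4, 16.3 and 28.7 FPKM with tofogliflozin, the widest relative spread on the diet among the tested members. Diet replicate 2 exceeded tofogliflozin replicate 2, so the groups overlapped, and the log2 change of 1.42 ± 0.46 (SE) had an adjusted p of 0.247 by limma. Its estimate moved from 0.89 without diet replicate 1 to 1.93 without diet replicate 2. Sex-dependent expression of Slc7a12 and Slc7a13 is known in mouse kidney. Of 5 androgen-responsive kidney genes, Odc1 and Gusb had an unadjusted p under 0.05, both with lower means, against 13.1% of all genes tested. Odc1, of polyamine synthesis, was at 1079, 582 and 636 FPKM and at 277, 498 and 259.6 FPKM with tofogliflozin, without overlap (limma adjusted p = 0.177). Kap overlapped between the groups (limma adjusted p = 0.827), and the part of androgen response in these values was not tested.

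Proton-coupled uptake is represented by Slc36a1, a carrier of small neutral amino acids at the plasma membrane and in lysosomes. Slc36a1 was at 61.7, 47.5 and 60.9 FPKM on the diet, against 41.4, 44.6 and 36.8 FPKM with tofogliflozin. The treated libraries were all lower, with the smallest distance between diet replicate 2 and tofogliflozin replicate 2 (log2 change -0.45 ± 0.12, SE; limma adjusted p = 0.181). Slc36a4, a proline and tryptophan carrier, had a mean of 1.75 and 2.04 FPKM (limma adjusted p = 0.677). Slc36a2, which carries proline and glycine, was listed at 0.368, 0.105 and 0 FPKM on the diet and at 0 in the 3 treated libraries, which at this depth is too few fragments to compare. Slc15a2, the carrier of filtered di- and tripeptides in the late proximal tubule, was at 51.3 ± 4.17 and 51.8 ± 6.89 FPKM (mean ± SD, n = 3; 95% interval of the log2 change -0.24 to 0.26).

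The groups overlapped for Slc7a7, Slc7a8, Slc3a2, Slc16a10 and Slc43a2, which serve release to the blood, and for Slc43a3. Slc7a7, the light chain that exports cationic amino acids, was at 122, 110.3 and 139.7 FPKM and at 138, 129.7 and 125 FPKM with tofogliflozin, with overlapping groups (log2 change 0.08; 95% interval -0.14 to 0.30). Slc7a8, a light chain for neutral amino acids, was at 58.6 ± 5.10 and 55.7 ± 1.54 FPKM (limma adjusted p = 0.771). Means of their common heavy chain gene Slc3a2 were 83.1 ± 6.84 FPKM on the diet and 89.2 ± 2.26 FPKM with tofogliflozin (limma adjusted p = 0.626). The summed light chains of Slc3a2 amounted to 2.11 to 2.32 times its level on the diet and 2.04 to 2.16 times with tofogliflozin. Slc16a10, which lets aromatic amino acids out, was at 13.6 ± 1.79 and 16.2 ± 1.51 FPKM, with overlapping groups (log2 change 0.24; limma adjusted p = 0.414). Of the Slc43 family, Slc43a2, an exit route for branched-chain and aromatic amino acids, had a mean of 39.4 ± 3.24 FPKM on the diet and of 36.5 ± 0.931 FPKM with tofogliflozin (limma adjusted p = 0.616). Slc43a3, whose product carries purine nucleobases, had means of 15.4 ± 1.41 and 18.5 ± 2.86 FPKM, in the same order of groups (limma adjusted p = 0.423).

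General nutrient carriers were low or showed small differences. Slc38a2, the system A carrier of glutamine and alanine, was at 16.6, 18.9 and 16.8 FPKM and at 16.5, 16.4 and 16.2 FPKM with tofogliflozin. Its groups did not overlap, yet the nearest libraries of the groups nearly met and the limma adjusted p was 0.699. Slc7a6, a light chain of broad distribution, was at 1.11 ± 0.252 and 1.54 ± 0.203 FPKM, Slc7a1 at 1.24 ± 0.00506 and 1.14 ± 0.266 FPKM and Slc7a2 at 1.34 ± 0.284 and 1.45 ± 0.240 FPKM, none of them with separate groups. Slc7a5, the leucine carrier of growing cells, was at 0.496 to 0.975 FPKM on the diet and 0.559 to 1.01 FPKM with the drug. Slc38a1 was at 0.496 to 0.754 and 0.556 to 0.581 FPKM and Slc43a1 at 0.523 to 0.787 and 0.652 to 1.04 FPKM. Slc38a4, also untested, was at 0.911, 0.846 and 0.606 FPKM and at 0.923, 0.930 and 1.42 FPKM; the groups did not overlap, but few fragments stand behind each value.

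The genes with separate groups lie on several chromosomes, and each FPKM value covers the whole gene. In the GRCm38 annotation (mm10) Slc1a5 spans 16781340 to 16798274 and Slc7a9 35448796 to 35466036 on chromosome 7, both on the plus strand. Slc6a19 (73679745 to 73704865) and Slc6a18 (73661752 to 73678023) are adjacent on the minus strand of chromosome 13, and Slc6a19 had separate groups while Slc6a18 had not. Slc36a1 lies on chromosome 11 from 55204350 to 55236330, Slc1a1 on chromosome 19 from 28835049 to 28913960, Slc6a13 on chromosome 6 from 121300227 to 121337733 and Slc7a13 on chromosome 4 from 19818725 to 19842218. Tmem27 is listed there under its current symbol Cltrn, on chromosome X from 164088830 to 164118860.

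Other carriers of amino acids gave a like mixture. Of 23 further plasma membrane carriers 6 were above the filter, and 0 passed over all genes (limma). Of the 6, 3 had an unadjusted p under 0.05, against 13.1% of all genes tested. Slc6a15, a carrier of branched-chain amino acids and proline, was at 14.8, 11.6 and 15.2 FPKM and at 20.3, 22.8 and 20.4 FPKM with tofogliflozin, without overlap (log2 change 0.58 ± 0.11, SE; limma adjusted p = 0.0795). Slc6a9, a glycine carrier, had lower values in all treated libraries (log2 change -0.73 ± 0.23, SE; limma adjusted p = 0.230). Of 9 mitochondrial carriers tested 0 passed, and 1, Sfxn3, had an unadjusted p under 0.05. Of 8 genes tested from a list of lysosomal amino acid carriers and nutrient sensing, 0 passed and 0 had such a p.

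Genes that act on the carriers or use their substrates were counted in the same way. Of all genes tested, 13.1% had an unadjusted p under 0.05, 6.7% with higher and 6.39% with lower means, so small counts can lie near that share. Of 12 apical partners and scaffolds 0 passed and 6 had an unadjusted p under 0.05, 4 with higher and 2 with lower means. Among 8 transcription factors of proximal tubule genes 0 passed and 3 had an unadjusted p under 0.05, 1 with a higher and 2 with lower means. Of 14 targets of the amino acid response 0 passed and 3 had an unadjusted p under 0.05, all with higher means. The list was not one-sided, with a log2 change above 0 for 10 of the 14 and below 0 for 4. The groups did not overlap in 4 of the 14, 3 of them higher with tofogliflozin and 1, Asns, lower. Asns, a gene of low level, had a log2 change of -0.442 (limma adjusted p = 0.392). Atf4 itself was at 64.3, 57.6 and 56.3 FPKM against 64.5, 63.6 and 60.9 FPKM.

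Of 11 genes of mTORC1 and transporter control, 1 rose, Tsc22d3 (limma adjusted p = 0.0188), where 0.253% of all genes tested passed. An unadjusted p under 0.05 was found for 4, against 13.1% of all genes tested, 3 with higher means and 1, Rptor, with a lower one. In 7 of the 11 the groups did not overlap, against 18.5% of all genes tested, 6 of them higher with tofogliflozin and Rptor lower. Sgk1, a kinase that raises the surface level of several carriers, was at 33.7, 20.9 and 31.6 FPKM and at 55.2, 67.3 and 75.7 FPKM, just short of the threshold (limma adjusted p = 0.0541). Among 25 enzymes of amino acid and linked metabolism in the proximal tubule, not all of breakdown, 2 rose and 0 fell, namely Bcat1 and Hpd. Of the 25, 10 had an unadjusted p under 0.05, all with higher means, against 13.1% of all genes tested. Glul and Pck1, which do not break down amino acids, are among these 10. Hpd, of tyrosine breakdown, was at 46.4, 39.1 and 33.7 FPKM and at 92.5, 70.9 and 82.1 FPKM with tofogliflozin (log2 change 1.03 ± 0.13, SE; limma adjusted p = 0.0379). The lists had a median log2 change of 0.16 for these enzymes and 0.15 for the control genes, beside 0.04 for the transporters.

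Markers of nephron segments and other cells were summed in each library. Of all genes tested, 13.1% had an unadjusted p under 0.05. The sum of 10 early proximal markers, to which Slc34a1 contributed most, was 4234 to 4693 FPKM on the diet against 4054 to 4198 FPKM with tofogliflozin, without overlap, and 1 of the 10 had an unadjusted p under 0.05 (Slc5a12, of higher mean). Taken singly, 0 of the 10 were lower in every treated library, and 5 had a log2 change above 0 and 5 below. The groups of Slc34a1 itself overlapped, at 2286 to 2645 against 2128 to 2292 FPKM. Sums were higher in every treated library for markers of the distal convoluted tubule (347 to 384 against 389 to 448), of principal cells (205 to 262 against 264 to 329) and of intercalated cells (67.5 to 80.6 against 82.0 to 100.3). In these lists 1 of 3, 4 of 6 and 2 of 5 genes had an unadjusted p under 0.05, all of higher mean. Slc12a3 made up most of the distal convoluted tubule sum, and its own groups overlapped (321 to 357 against 348 to 406). Fxyd4, of principal cells, had a lower mean (log2 change -0.32). The sum of 6 late proximal tubule markers overlapped, at 665 to 1101 against 481 to 689. At such a p and of lower mean were 3 of the 6 (Atp11a, Slc22a7 and Acsm3), with 0 passing over all genes by limma. The others did not fall alike, with log2 changes of 0.39 for Cyp7b1, 0.001 for Slc5a10 and -0.003 for Slc5a1. The sums of macrophage markers overlapped as well, at 112 to 296 against 93.9 to 142. Of 8 macrophage markers tested, 7 had a log2 change below 0 and 1 above. An unadjusted p under 0.05 was found for 2, Csf1r and Lyz2, both of lower mean. Csf1r was lower in every treated library (limma adjusted p = 0.198), while Lyz2 overlapped. Diet replicate 2 had the highest macrophage sum. Of the 9 transporters at such a p, it had the lowest Slc1a4, Slc36a1, Slc1a1, Slc6a13, Slc7a13, Slc7a9 and Slc6a19 of the diet libraries. It had the highest Slc1a5 and Slc7a12 of them. It was the lowest diet library for 15 of the 28 tested transporters and the highest for 10. The share over all genes was not computed. Sums also overlapped for thick ascending limb (2001 to 2673 against 2222 to 2409), podocytes (91.8 to 99.8 against 98.1 to 103), endothelial cells (159.5 to 169 against 149 to 181), lymphocytes (3.29 to 7.98 against 2.55 to 5.23), fibroblasts (21.5 to 26.0 against 15.1 to 30.9) and inner medulla (10.2 to 25.3 against 20.4 to 25.8). No defining marker of these types was listed at 0 in all libraries. The part of cell composition in the transporter values was not tested.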

How the data were processed

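RNA of 6 renal cortex samples was sequenced after preparation with a stranded mRNA kit, per the labels' protocols. The authors deposited 1 table per library with gene symbols and FPKM values. Per the submitters' processing notes, TopHat2 2.1.1, Bowtie2 2.2.8, SAMtools 0.1.18, Cuffdiff 2.2.1 and mm10 are named; the labels state neither their roles nor the annotation or scaling. Upper quartiles of all libraries lay at 10.5 to 10.6 FPKM.

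Depth was read from the steps of values below 0.3 FPKM, of which 79.2% came out whole, to a tolerance of 1%, in units of the lowest value of their gene, and from gene lengths; it is approximate, and no count test was run. The 12248 genes that reached 1 FPKM in 3 or more of the 6 libraries were compared on log2(FPKM + 1), which understates changes of low genes, with limma 3.58.1 in R 4.3.3 (mean-variance trend, two-sided, Benjamini-Hochberg over all tested genes, threshold 0.05). The code was tested on simulated data. Fold factors are ratios of mean FPKM.

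The transporters, lists, motifs and tests were chosen with earlier results of these data known. Named are all 33 transporters, in full where the unadjusted p was under 0.05, the groups did not overlap or the mean was among the 10 highest, and up to 3 genes of smallest p per list; others named were chosen after their values were seen. Some list genes that this rule would name are not reported here. Positions and sequences are from GRCm38 (32 genes by symbol, 1 by an older symbol). Alternatives were another pseudocount (0.1), no filter, a filter at 5 FPKM, upper-quartile and quantile scaling, each library left out, a replicate block, library weights, no trend and a robust trend.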

Additional observations from a re-analysis of the deposited data

How the results depend on the processing

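The number of transporters past the threshold was 0 and became 1, Slc1a5 in each case, without diet replicate 2, with library weights or with a robust trend; it was 0 in the other 12 settings. Counts over all genes, 31 as reported, were 1 with no filter, 20 with a filter at 5 FPKM, 47 with upper-quartile scaling, 123 with library weights and 61 with a robust trend. They were 9, 66 and 57 without diet replicate 1, 2 or 3 and 4, 18 and 2 without tofogliflozin replicate 1, 2 or 3. In checks added after the data were seen, the transporters at an unadjusted p under 0.05, 9 as reported, numbered 6 to 10 in these settings. Those with separate groups, also 9, numbered 8 to 10 with all libraries and 11 to 15 with one left out (15 without tofogliflozin replicate 2), since fewer libraries separate more easily. With the replicate number as a block, 26 genes and 0 transporters passed. Deviations of same-numbered libraries correlated at -0.055, -0.062 and 0.051, so no pairing by replicate number was seen. With 3 libraries per group these values cannot exclude a pairing. Of 17 transporters followed through 15 settings, 13 never changed sign. The sign turned for Slc7a7 without diet replicate 2 (-0.002; -0.002 to 0.168 with 1 library left out), for Slc6a20b without tofogliflozin replicate 2 (0.005; -0.034 to 0.005) and for Tmem27 under quantile normalization (0.011) and without diet replicate 3 (0.061; -0.153 to 0.061). It also turned for Slc6a8 under upper-quartile scaling (0.005) and quantile normalization (0.006), and without diet replicate 3 (0.134), tofogliflozin replicate 1 (0.037) or tofogliflozin replicate 3 (0.009; -0.136 to 0.134). The cause was not tested. No scaling moved the median of all genes by over 0.1. Genes near 1 FPKM rest on few fragments (7.57 to 9.80 per kilobase at 1 FPKM), which limits what can be detected among the low transporters.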

Other observations

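Chosen after the values were seen, the order of the 6 libraries by Slc7a12 was the exact reverse of their order by Slc22a7, an organic anion carrier gene of the late proximal tubule. Slc22a7 was at 77.1, 23.3 and 65.3 FPKM on the diet, where Slc7a12 was at 3.31, 17.3 and 8.33 FPKM, and at 8.53, 32.4 and 7.78 FPKM with tofogliflozin, where Slc7a12 was at 26.4, 16.3 and 28.7 FPKM. Acsm3, a medium-chain acyl-CoA synthetase gene, was at 453, 165 and 272 FPKM and at 95.1, 193 and 73.4 FPKM, so that tofogliflozin replicate 2 exceeded diet replicate 2 for Slc22a7 and Acsm3 and was below it for Slc7a12. Slc7a13 was highest in tofogliflozin replicate 2 among the treated libraries and lowest in diet replicate 2 among the controls. These are orders within 6 libraries of 2 groups, given without a test.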
